A study of Acipenser sturio with 24 samples.

Results

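Of 275906 assembled transcript components measured in whole sturgeon embryos, 51 had a mean of at least 5 before and during gastrulation and a far higher mean in the tailbud embryo, although in some of them 1 early library carried the early mean. They were chosen from the deposited values by a mean of at least 5 over stages 0 to 11 (7 libraries), a mean over stages 22 to 36 (8 libraries) of at least 8 times that early mean, and no value of 300 or more at stages 18 to 36. A component is one entry of the transcript assembly behind the table, and its value is a normalized abundance. No gene name is paired with an identifier in the table, so members are given by identifier and no role can be stated for any of them. The 51 were 0.729% of the 6995 components with an early mean of at least 5.

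The egg is loaded with maternal RNA, on which the embryo runs until its own genome is switched on around the blastula stage. Much of that maternal RNA is then broken down, while zygotic transcription supplies RNA for germ layers, the neural tube and, in the tailbud, muscle, blood and nervous tissue. A transcript that is both in the egg and high later can be in maternal store first and made by the embryo's own cells afterwards, and in whole-embryo RNA more cells expressing a transcript and more RNA per cell cannot be told apart.

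The libraries came from Bester hybrids, a cross of Beluga (Huso huso) and Sterlet (Acipenser ruthenus), although the organism field names Acipenser sturio. All embryos were untreated and raised in dilute MMR, a saline medium, and total RNA was depleted of ribosomal RNA. Each of 24 stages on the Nieuwkoop-Faber (NF) scale, the staging table of the frog Xenopus, has 1 library, and the number of embryos or clutches behind a library is not given. Windows of neighbouring stages were compared: cleavage (stages 0 and 4), blastula to mid gastrula (8, 9, 10, 10.5 and 11), late gastrula to early neurula (12, 12.5, 13 and 13.5), mid neurula (15 and 16), late neurula (18, 19 and 20), early tailbud (22, 23, 24 and 26) and late tailbud (29, 32, 35 and 36). The p-values therefore measure scatter among stages of a window, including development within it, and not scatter between repeated samples of a stage.

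Library totals ran from 342953 to 679612, and reads per unit of value, estimated from the ratios of low values, differed up to 4.97-fold between libraries, with the highest figure at stage 4 and the lowest at stage 29 (77.9% of library pairs lay within 0.1 log2 units of the fitted ratios). The absolute depth is unknown. The residuals about a smooth stage curve separated 7 libraries (stages 0, 13, 16, 19, 24, 29 and 36, called set B) from the other 17 (set A), a split that the labels do not record. The members are described in deposited values unless scaled values, divided by a factor per library (the median of ratios), are named. The 4 comparisons and the counts of timing and peaks are also given within set A. With the rule applied to set A libraries alone there were 60 members, 41 of them among the 51.

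The values that chose the members are a description. The early means ran from 5.12 to 17.5, with a median of 7.48, and the means over stages 22 to 36 from 43.9 to 247, with a median of 94.6. The ratio between them had a median of 12.5 and reached 23.3, whereas the median ratio of all 6995 early-present components was 0.679. The lowest ratio inside the rule was 8.17 and the highest outside it 7.997. The nearest early means were 5.12 inside and 4.95 outside, and the nearest peak values 286 inside and 301 outside.

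The component with the highest ratio was comp250133_c0. Its early mean was 5.27, and 4.91 without stage 11, its highest early library, so it met the rule only with that library. It held 2.92 to 7.42 over stages 0 to 11 (median 4.64, 7 libraries) and 0.36 to 6.16 over stages 12 to 16 (median 2.11, 6 libraries). It reached 27.0, 25.7 and 44.3 at stages 18, 19 and 20. In the early tailbud it stood at 57.2, 83.7, 40.9 and 161 at stages 22, 23, 24 and 26, and in the late tailbud at 58.7, 188, 227 and 163 at stages 29, 32, 35 and 36. All 11 libraries from stage 18 on were above every earlier library, and stages 19, 24 and 29, all of set B, were lower than the stages on either side.

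**Figure D1:**
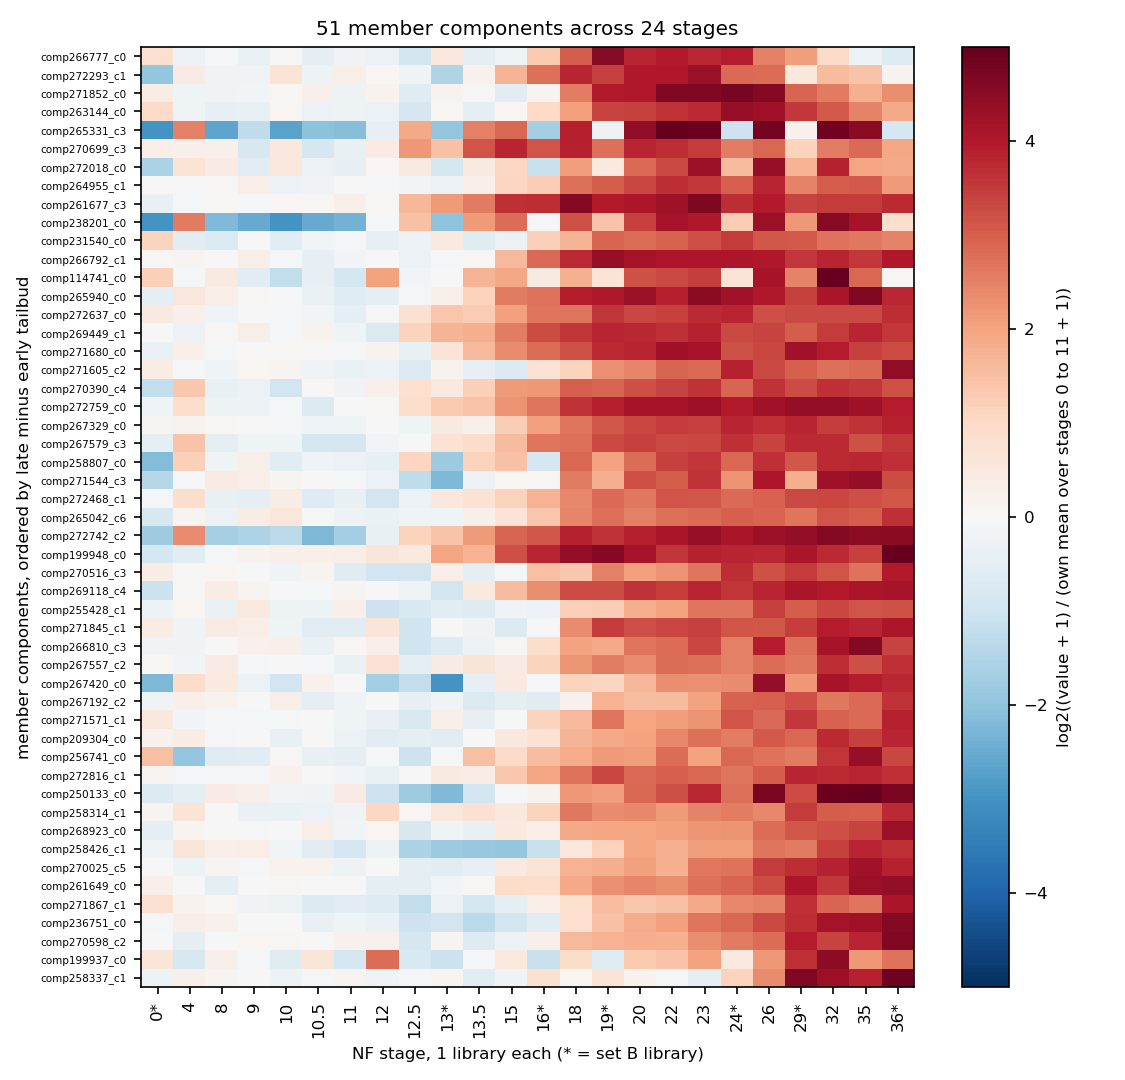
Each row is one of the 51 member components and each column the library of one NF stage, with set B libraries starred. Colour gives log2 of (value + 1) over (the component's own mean over stages 0 to 11 + 1). Rows are ordered by the late minus early tailbud difference, from comp266777_c0 at the top, which is red from stage 18 and pale again at stage 35, to comp258337_c1 at the bottom, which turns red at stage 26.

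Presence in the egg and cleavage embryo held for most of the members but not for all. A value of at least 1 was reached in all 7 libraries of stages 0 to 11 by 47 of 51 members, and a value of at least 5 in all 7 by 23. Without its own highest early library, the early mean of 12 members fell below 5, and that of 2 members below 2. The highest early library was stage 4 in 18 members and stage 0 in 13.

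Stage 4 alone lifted the early mean of some members to 5 or more. In 4 members, comp272742_c2, comp265331_c3, comp238201_c0 and comp267579_c3, the stage 4 value was at least 3 times that of any other early library. comp238201_c0 stood at 0, 47.1, 0.75, 0.40, 0, 0.42 and 0.57 at stages 0, 4, 8, 9, 10, 10.5 and 11. comp272742_c2 stood at 1.86, 49.5, 2.1, 2.4, 2.81, 1.06 and 1.99 at stages 0, 4, 8, 9, 10, 10.5 and 11. In later libraries comp272742_c2, the member with the second highest ratio, stood at 141, 119 and 145 at stages 18, 19 and 20, at 163, 199.8, 164 and 189 at stages 22, 23, 24 and 26 and at 203, 234, 217 and 224 at stages 29, 32, 35 and 36. In the other 6 early libraries comp265331_c3 held at most 2.35 and comp267579_c3 2.6 to 4.63, so in all 4 members the early mean of at least 5 rests on the stage 4 library. The same excess was found in 14 of all 6995 early-present components (0.2%), and 9 of those 14 had a tailbud to early ratio of at least 8. Of those 9, 4 are the members named here and 5 exceed the ceiling of the rule. The stage 4 library also had the most reads per unit of value, and the part of that in the excess was not tested. In comp270390_c4, comp258807_c0 and comp258314_c1 stage 4 was again the highest early library, by less than 3 times. Without it their early means were 3.675, 4.51 and 4.52, so they too met the rule only with stage 4.

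**Figure D2:**
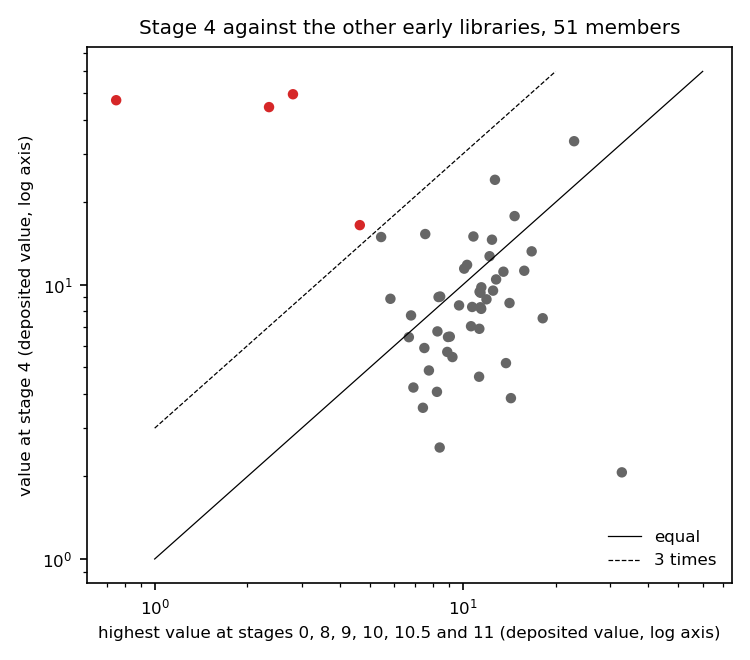
Each point is one of the 51 members, with the value at stage 4 on the vertical axis and the highest value at the other 6 early stages on the horizontal axis, both on log axes. The 4 members in red lie above the dashed line at 3 times the other libraries, and the solid line marks equal values.

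Between cleavage and the stages from blastula to mid gastrula, no member passed the test. limma called 0 of 51 members and 0 of 48818 components tested (0% called in either direction). An unadjusted p under 0.05 was reached by 7 members (13.7%), by 6.86% of the early-present components and by 1730 of all components (3.54%). The 7 include comp272742_c2, comp267579_c3 and comp258314_c1, whose early mean reaches 5 only with stage 4, a cleavage library. The rule used these libraries, so nothing is read from the members' share against the backgrounds. The median log2 difference of the members was -0.23, beside 0.00 over all components, and the estimates ran from -2.29 to 0.82. The highest estimates were those of comp199948_c0, 0.82 (SE 0.36, limma adjusted p = 1), and comp271544_c3, 0.80 (SE 0.557, limma adjusted p = 1). The lowest were those of comp238201_c0, -2.29 (SE 1.26, limma adjusted p = 1), and comp272742_c2, -2.03 (SE 0.644, limma adjusted p = 1). Without stage 4 the estimates of these last components were 0.44 and 0.03. Within set A, stage 4 is the sole cleavage library. The differences of the 4 members named for stage 4 were then -5.03 for comp238201_c0, -4.61 for comp265331_c3, -4.09 for comp272742_c2 and -1.99 for comp267579_c3. These 4 met the rule through stage 4 alone, so their lower level at stages 8 to 11 restates values that chose them and is a description with no test.

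Stages 12 to 16 lie between the stages the rule used, and none of these 6 libraries entered the choice of members. A rule that asks for a tailbud mean of at least 8 times the early mean still favours a rise in between. Nothing is therefore read from the members' levels or slopes over these stages against the backgrounds. As the median of each member's value over its own early mean, the members stood at 0.916, 0.785, 1.03, 1.19, 1.69 and 2.31 at stages 12, 12.5, 13, 13.5, 15 and 16. All early-present components together stood at 0.896, 0.571, 0.796, 0.674, 0.477 and 0.516 at the same stages. In scaled values the members stood at 1.06, 1.34, 1.41, 1.61, 3.15 and 3.82 and the early-present components at 1.04, 0.976, 1.1, 0.909, 0.884 and 0.854. The members' median was thus lower at stage 12.5 than at stage 12 in deposited values and higher in scaled ones, and on both scales it went up from stage 12.5 to stage 16. At least 2 times the own early mean was reached by 3, 16, 24 and 27 members at stages 12, 13.5, 15 and 16, and in scaled values by 4, 19, 34 and 37.

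A line fitted through the 6 libraries had a positive slope in 47 of 51 members (92.2%), as in 65.4% of all components and 41.7% of the early-present ones, with a median of 0.34 log2 units per stage step beside 0.06 over all components. Past the threshold were 3 members that rose and 0 that fell, where limma called 1.15% of all components and 0.229% of the early-present ones as rising, and 0.367% and 1.93% as falling. An unadjusted p under 0.05 was reached by 27 members (52.9%), in either direction by 30.5% of all components and by 37% of the early-present ones. The 3 members were comp271680_c0 with a slope of 0.72 (SE 0.0846, limma adjusted p = 0.0442), comp267579_c3 with 0.63 (SE 0.0708, limma adjusted p = 0.044) and comp272468_c1 with 0.59 (SE 0.0567, limma adjusted p = 0.0406). Slopes above these, from 0.75 to 0.80, were held by 5 members that did not pass, with comp265940_c0 the highest at 0.80 (SE 0.113, limma adjusted p = 0.0544).

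comp271680_c0 stood at 11.3, 7.33, 15.8, 32.4, 54.6 and 73.9 at stages 12, 12.5, 13, 13.5, 15 and 16. It had held 7.51 to 11.8 over stages 0 to 11 (median 9.91, 7 libraries), and its values from stage 13 on exceeded all of them. comp267579_c3 stood at 4.96, 5.31, 9.57, 11.1, 18.4 and 40.6 at stages 12, 12.5, 13, 13.5, 15 and 16, each library above the one before.

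With a library left out, most calls were lost, while the median slope of the members changed little, at 0.34 to 0.42. The slope of comp271680_c0 was 0.68 to 0.85 and that of comp267579_c3 0.54 to 0.68. The lowest slopes, those of comp199937_c0 and comp258426_c1, changed sign without stage 12. The count of calls was 0 without stage 12, 12.5, 13, 15 or 16 and 4 without stage 13.5, and 0 within set A or with the set as a term. It was 24, all rising, when testing was limited to the 12778 components that reach 5 in 4 or more libraries, of which 18.2% were then called as rising and 8.33% as falling.

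How many members went down before they went up depends on the scaling. In deposited values the mean over stages 12 to 16 lay below the early mean in 13 of 51 members and at 2 or more times it in 17. Among the early-present components the shares were 88.4% and 1.7%. In scaled values the members' counts were 4 and 27, beside 51.9% and 4.73% of the early-present components. Within set A they were 22 and 15 in deposited values, beside 91.7% and 1.44%. In scaled values within set A they were 6 and 27, beside 52.2% and 3.56%. The rule used the early mean and required a later rise, so nothing is read from these counts against the early-present shares. The lowest ratio in deposited values, 0.357, was that of comp258426_c1, which held 5.99 to 17.8 over stages 0 to 11 (median 10.3, 7 libraries) and then 9.44, 3.16, 2.56, 2.36, 2.2 and 4.65 at stages 12, 12.5, 13, 13.5, 15 and 16. All 5 libraries from stage 12.5 to 16 were under its lowest early value in deposited values, and those of stages 12.5 to 15 in scaled ones, where stage 16 stood at 6.75 beside a lowest early value of 5.55. It reached 17.1, 26.7 and 48.1 at stages 18, 19 and 20 and 73.3, 131, 174 and 155 at stages 29, 32, 35 and 36. Its slope over stages 12 to 16, -0.10 (SE 0.137, limma adjusted p = 0.703), did not pass the test. Nor did the lowest slope, that of comp199937_c0, -0.36 (SE 0.307, limma adjusted p = 0.49), which rests on a value of 41.6 at stage 12 beside 1.8 to 7.49 at the other 5 stages. Without stage 12 the slopes were 0.10 and 0.11.

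**Figure D3:**
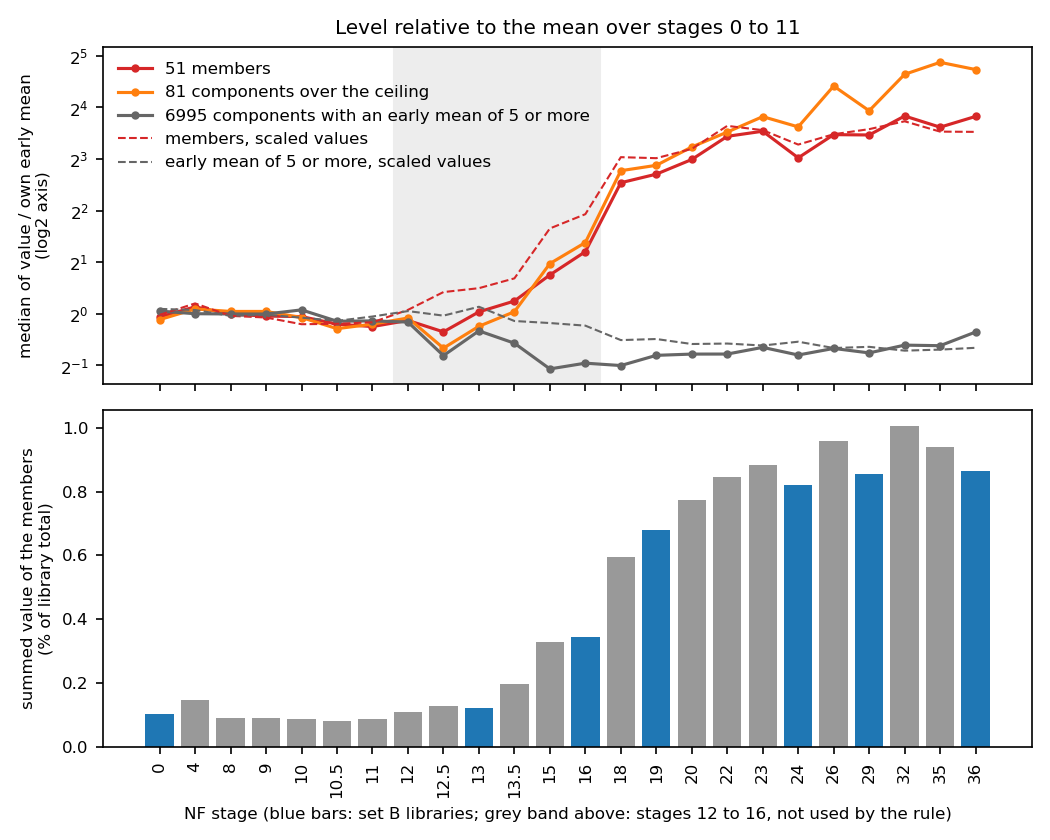
The upper panel gives, for each stage, the median of value over own early mean on a log2 axis, for the 51 members, for the 81 components that meet the rest of the rule but reach 300 or more, and for all 6995 components with an early mean of at least 5. The lower panel gives the members' summed value as a percent of the library total, with set B libraries in blue. Dashed lines give the same medians in scaled values. Members and early-present components part between stages 12 and 12.5 on both scales, and the members' share rises from 0.126% at stage 12.5 to 0.595% at stage 18.

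The largest step between neighbouring stages in the members' median, from 2.31 to 5.82 times the own early mean (3.82 to 8.21 in scaled values), lay between stages 16 and 18. Of 51 members, 45 rose from stages 12 to 16 to stages 18 to 20 and 0 fell, where limma called 40.7% of all components and 16.8% of the early-present ones as rising and 9.99% and 40.4% as falling. The median log2 difference of the members was 1.92 (median SE 0.304), beside 0.46 over all components and -0.33 over the early-present ones. The 45 that rose did so by 1.33 to 3.61. In scaled values all 3 late neurula libraries exceeded all 6 earlier ones in 37 members, as in 23.9% of all components and 9.51% of the early-present ones. The rule used stages 18 to 20 through its ceiling alone and stages 12 to 16 not at all, but members chosen for a high tailbud mean are not independent of a level just before it.

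comp266777_c0 rose most in this comparison. Its early mean was 4.98 without stage 0, its highest early library, so it met the rule only with that library. It held 4.07 to 11.3 over stages 0 to 11 (median 5.12, 7 libraries) and 2.66 to 15.9 over stages 12 to 16 (median 4.74, 6 libraries). It then stood at 55.9, 159.7 and 96.4 at stages 18, 19 and 20, a log2 difference of 3.61 (SE 0.499, limma adjusted p = 4.63e-06). All 3 late neurula values exceeded every earlier one. comp271852_c0, the next, held 4.72 to 7.76 over stages 0 to 11 (median 5.21, 7 libraries) and 3.55 to 6.78 over stages 12 to 16 (median 6.36, 6 libraries). It went to 39.8, 106 and 108 at stages 18, 19 and 20, a log2 difference of 3.41 (SE 0.264, limma adjusted p = 1.85e-09).

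The members that did not pass were 6. comp258337_c1, at 0.10 (SE 0.396, limma adjusted p = 0.856), stood at 8.08, 12.3 and 8.63 at stages 18, 19 and 20, which is inside its range at stages 12 to 16 of 4.89 to 13.4. Its sign was negative under column totals (-0.02) and under the trimmed mean of log ratios (-0.32). comp199937_c0 had an estimate of 0.31 (SE 0.653, limma adjusted p = 0.719), and -0.08 under the trimmed mean. Of these 6 members, 4 were among the 8 that lay a mean log2 difference of 1 or more below the neighbouring stages in set B libraries, described further on. Within set A 47 members rose (92.2%) and 0 fell, where 41.5% of all components rose and 9.93% fell. Within set B 44 of the 45 called members were higher at stage 19 than at stages 13 and 16. Stages 13, 16 and 19 entered the comparison that called the 45, so the set B count is a description and no separate test.

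The background of this comparison depends on the scaling. Over all components 19892 rose and 4875 fell, and under the trimmed mean of log ratios 15076 rose and 6546 fell, with medians of 0.46 and 0.30. The members' median was then 1.49, and 42 rose. The 39 members whose early mean stays at 5 or more without their highest early library held 37 of the 45 rises.

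The time at which a member came up varied. Taking the first library after stage 11 with at least 50% of the member's own tailbud mean, 2 members reached it in the late gastrula to early neurula window, 8 in the mid neurula, 28 in the late neurula, 12 in the early tailbud and 1, comp258337_c1, in the late tailbud. Stage 18 was the commonest, with 17 members. In scaled values the numbers in these 5 windows were 3, 20, 21, 6 and 1. They were 4, 12, 27, 7 and 1 under column totals and 9, 17, 16, 9 and 0 under the trimmed mean of log ratios. Under the trimmed mean the late neurula was thus not the commonest window. Within set A, where stage 15 is the sole mid neurula library, the numbers were 2, 2, 35, 12 and 0 in deposited values and 2, 11, 33, 5 and 0 in scaled ones. The earliest were comp199937_c0 at stage 12, through the value of 41.6 named above, and comp270699_c3 at stage 12.5, with a value of 28.3. These timings are read against the tailbud mean that chose the members and are a description.

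Within the tailbud members differed in direction. From early tailbud (stages 22 to 26) to late tailbud (stages 29 to 36), 11 members rose and 5 fell, while 35 did not pass. Over all components limma called 10.9% as rising and 9.65% as falling, and over the early-present ones 11.6% and 12.6%, beside 21.6% and 9.8% of the members. The median log2 difference of the members was 0.04, beside -0.08 over all components, with a range from -3.20 to 3.42. In scaled values all late tailbud libraries lay above all early tailbud ones in 10 members and below them in 8, as in 7.9% and 7.43% of all components and 10.3% and 11% of the early-present ones. The rule used the mean over both windows and a ceiling on their values, so nothing is read from the members' shares against the backgrounds.

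The 11 that rose had differences from 0.54 to 3.42, with a median of 1.02. comp258337_c1 led them. It stood at 7.0, 5.2, 18.1 and 43.3 at stages 22, 23, 24 and 26. It then stood at 207, 164, 120.4 and 247 at stages 29, 32, 35 and 36, a log2 difference of 3.42 (SE 0.396, limma adjusted p = 1.12e-06). Every late tailbud value was above every early tailbud value, and stages 22 and 23 were no higher than its early range of 6.08 to 9.02. comp270598_c2 climbed from 29.2, 43.9, 52.5 and 60.1 at stages 22, 23, 24 and 26 to 134, 90.5, 124 and 218 at stages 29, 32, 35 and 36, a difference of 1.35 (SE 0.233, limma adjusted p = 0.000165). Between them in size was comp199937_c0, 1.52 (SE 0.653, limma adjusted p = 0.107), which did not pass. comp270598_c2 had already stood at 26.5, 28.9 and 30.5 at stages 18, 19 and 20, so its rise ran through both neurula and tailbud.

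The 5 that fell had differences from -3.20 to -1.04, and each had been among those that rose at the late neurula. comp266777_c0 stood at 106, 94.1, 105 and 38.6 at stages 22, 23, 24 and 26. It then stood at 27.9, 12.3, 4.65 and 3.41 at stages 29, 32, 35 and 36, a difference of -3.20 (SE 0.499, limma adjusted p = 4.91e-05). Its highest library was stage 19, and at stages 35 and 36 it was back below its early mean of 5.88. The stage 35 value was still inside its early range of 4.07 to 11.3. comp272293_c1 went from 123, 152, 54.5 and 52.3 at stages 22, 23, 24 and 26 to 10.2, 22.5, 20.1 and 7.85 at stages 29, 32, 35 and 36, a difference of -2.73 (SE 0.46, limma adjusted p = 0.000117). comp271852_c0, the third lowest, fell from 171, 167, 185 and 164 at stages 22, 23, 24 and 26 to 50.7, 40.5, 22.7 and 33.4 at stages 29, 32, 35 and 36, a difference of -2.45 (SE 0.264, limma adjusted p = 4.21e-07). The remaining 2 were comp263144_c0 at -1.46 (SE 0.344, limma adjusted p = 0.00339) and comp264955_c1 at -1.04 (SE 0.219, limma adjusted p = 0.00131).

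**Figure D4:**
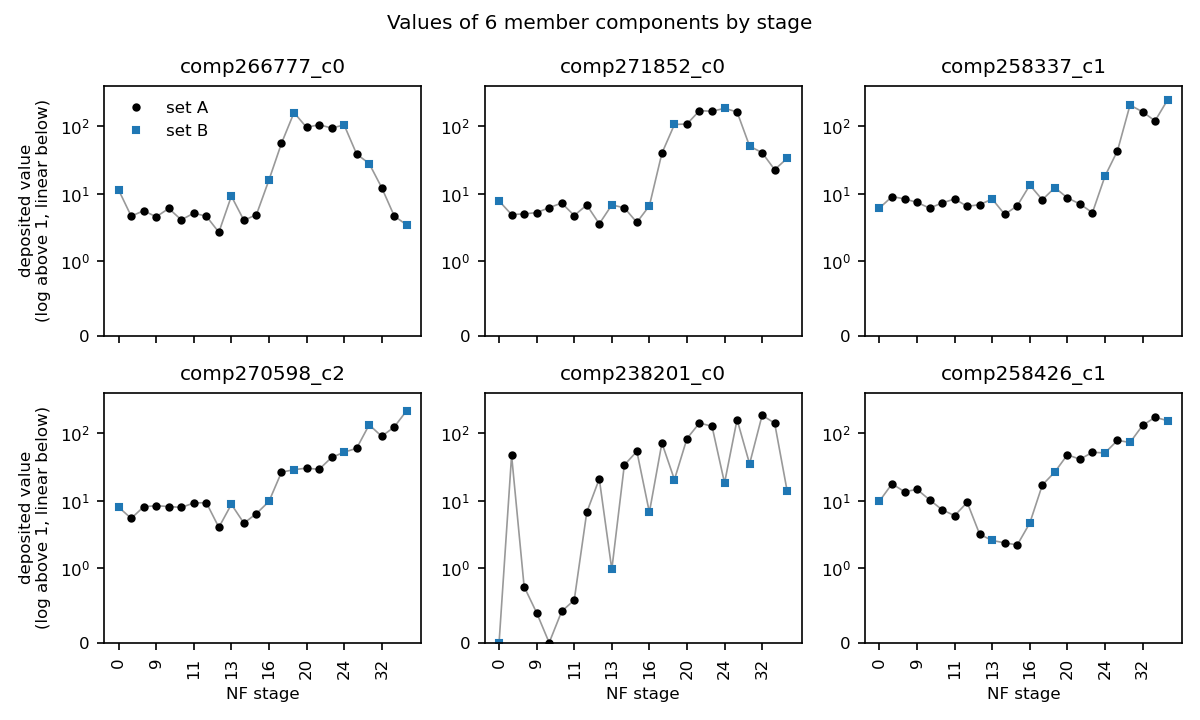
Deposited values of 6 member components at 24 stages, with set A libraries as black circles and set B libraries as blue squares, on an axis that is logarithmic above 1 and linear below. comp266777_c0 and comp271852_c0 peak between stages 19 and 24 and fall, comp258337_c1 stays low until stage 23, comp270598_c2 climbs through the tailbud, comp238201_c0 is high at stage 4 and low in every set B library beside its neighbours, and comp258426_c1 dips below its early level before it rises.

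Within set A, 6 members rose (11.8%) and 5 fell (9.8%) in this comparison, as did 9.57% and 7.14% of all components. Within set B, all 11 members that rose stood higher at stages 29 and 36 than at stage 24, and all 5 that fell stood lower. These libraries entered the contrast that called the members, so the set B counts are a description and no separate test. Under the trimmed mean of log ratios 7 members rose and 5 fell. Over all components 5316 rose and 4711 fell, against 7044 and 3647 with values as deposited and 4051 and 4480 under the trimmed mean.

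**Figure D5:**
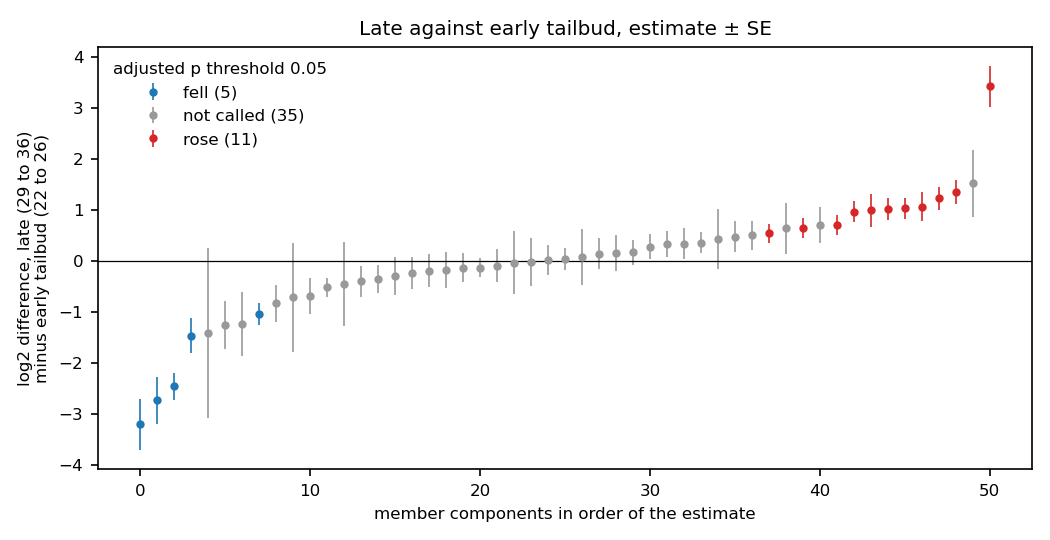
Log2 difference of late from early tailbud for each of the 51 members, in order of the estimate, with its standard error as a bar. The 5 members that fell lie between -3.20 and -1.04, the 11 that rose between 0.54 and 3.42, and the 35 in grey did not pass the adjusted p threshold of 0.05.

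By their highest library, 35 members peaked in the late tailbud (17 of them at stage 36), 13 in the early tailbud and 3 in the late neurula. In scaled values 29 peaked in the late tailbud (6 of them at stage 36), 15 in the early tailbud and 6 in the late neurula. Within set A, which lacks stages 29 and 36, 30 peaked in the late tailbud, 18 in the early tailbud and 3 in the late neurula, or 24, 19 and 7 in scaled values. At stage 36 a member stood below its own early mean in 2 cases, comp266777_c0 and comp265331_c3. The latter held 182 and 3.38 at stages 35 and 36 and belongs to the members that are low in set B. Its early mean of 7.01 rests on the value of 44.5 at stage 4. The stage 36 value was above all its other early libraries, which held at most 2.35.

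Members also differed in how they stood in the set B libraries. The 5 set B libraries with a set A library on either side are stages 13, 16, 19, 24 and 29. In 8 of 51 members (15.7%) the scaled value was below both neighbours in all 5, as in 6.89% of early-present components and 4.04% of all components tested. A mean log2 difference from the neighbours of -1 or lower was also held by 8 members (15.7%), against 4.19% and 2.61%. Among the 81 components that meet the rule except for its ceiling each of the 2 traits was held by 16 (19.8%). The lowest was comp265331_c3 at -4.83, with 117, 5.65 and 171 at stages 18, 19 and 20, and then comp238201_c0 at -2.76, with 72.1, 20.6 and 83.8 at stages 18, 19 and 20. At the other end 2 members (3.92%) stood above both neighbours in all 5, as in 12.4% of early-present components and 4.17% of all components tested. The median over the members was 0.00. The rule used stages 24 and 29 and their neighbours. The difference was taken on log2(scaled value + 1), where components with values near 1 can hardly reach -1. Nothing is therefore read from the members' shares against the backgrounds. None of the 16 members called in the tailbud comparison was among those at -1 or lower. Set B libraries lie in both tailbud windows, so a low level in them widens the scatter within each window. The standard errors of these 8 members in that comparison ran from 0.471 to 1.66, beside a median of 0.304 over the members. They could thus hardly pass, and nothing is read from their absence among the calls.

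The 81 components that meet the rule except for its ceiling are the most like the members. Their median early mean was 16.6 and their median tailbud mean 405, against 7.48 and 94.6. Of the 81, 70 rose and 2 fell at the late neurula, and the median log2 difference was 2.26, beside 1.92 in the members. From early to late tailbud 37 of 81 rose and 4 fell, with a median of 0.74, where 11 of 51 members rose and 5 fell with a median of 0.04. The ceiling that separates the 2 lists acts on the late neurula values as well as on the tailbud values. The difference between the lists was therefore not tested in either comparison.

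In weight the members stayed a small part of the library. Their summed value was between 0.0805% and 0.146% of the library total over stages 0 to 11, 0.345% at stage 16, 0.775% at stage 20 and 1.01% at stage 32, its highest. The 51 members carried 51 different identifier stems, the part that precedes _c. A stem was shared with another tested component by 25 members. Of the 7 such components with an early mean of at least 5, 0 had a ratio of at least 8, with a median ratio of 1.39. Among all early-present components 1.89% reached a ratio of 8, so 7 components are too few to read anything from the 0.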

How the data were processed

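The deposited table gives a signal per assembled component and library that the authors normalized before deposit. The values are not counts (2 decimals, 0.458% whole among those above 0). CASAVA 1.8.2, Trimmomatic, Bowtie and RSEM are named in the submitters' processing notes, without a role or order. The assembler and the unit (FPKM or TPM) are not given in the sources used here. All 24 columns were mapped through the labels.

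The members and comparisons were chosen with earlier results of these data known. Components at 1 or more in at least 4 libraries were tested (48818, all 51 members among them). Values were scaled by the median of ratios over components above 0 in every library, and limma 3.58.1 (R 4.3.3) with trend and robust variances was run on log2(scaled value + 1), with Benjamini-Hochberg adjustment over all components at 0.05. On this scale folds of low components come out too small. The 3 window contrasts used all 24 libraries, and the slope used stages 12 to 16 alone. The sets were split at the widest gap of the first principal component of the residuals about a spline. The fits were tested on simulated data, with known changes added to flat means with independent normal scatter. Development within a window and the split into sets were not simulated, so no support for the calls is drawn from it. Members named are the 2 with the highest ratio, the 2 highest and 2 lowest in each comparison (among members past the threshold where there were any), and others where a count of 5 or fewer was given or one was singled out after its values were seen.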

Additional observations from a re-analysis of the deposited data

Results flagged for a closer look

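Among 14 named members, each of the windows of 4 or 5 libraries was examined for a library far from the others, 56 cases in all, where chance alone lists about 1 in 20. In 2 cases a library stood apart, both in the late gastrula to early neurula window and both at stage 12, the first stage of that window. Both components were named for the lowest slopes over stages 12 to 16, which a high value at stage 12 lowers. The shared stage is therefore not independent of their choice. comp199937_c0 was at 41.6 at stage 12, and at 2.65, 1.92 and 4.87 at stages 12.5, 13 and 13.5. comp258426_c1 was at 9.44 at stage 12, and at 3.16, 2.56 and 2.36 at stages 12.5, 13 and 13.5. The libraries of a window are different stages, so such a gap can include development.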

How the results depend on the processing

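No paired analysis was possible because stages carry no replicate numbers. The number of members was 92 with a ratio of at least 6 and 132 without the ceiling, and 48 to 58 with a library that the rule uses left out. It was 52 with scaled values, of which 41 were among the 51, and 48 with column totals, of which 32 were. The slope over stages 12 to 16 called 0 members with a pseudocount of 5, 0 without a filter, 24 with a minimum of 5 in 4 libraries, 0 with the set as a term and 0 in set A. With a library left out it called 0 to 4. The late neurula comparison called 43 to 46 with a library left out, and the tailbud comparison 13 to 17. The cleavage comparison called 2 with the set as a term, 4 in set A and 0 to 1 with a library left out, where 8, 60 and up to 36 of all components were called. These members met the rule through stage 4, so their calls support nothing. Among 264 alternatives for single components 10 changed sign. These were comp258337_c1 at the late neurula (-0.02 with column totals, -0.32 with the trimmed mean, -0.06 to 0.29 with a library left out), comp199937_c0 there (-0.08 with the trimmed mean, -0.01 to 0.90 with a library left out), comp199937_c0 and comp258426_c1 in the slope (-0.52 to 0.11 and -0.30 to 0.10 with a library left out), and comp238201_c0 and comp272742_c2 in the cleavage comparison (-5.03 to 0.44 and -4.09 to 0.03 with a library left out). None of these had passed the threshold. With members chosen and models fitted without stage 4, an alternative added after seeing the data, 49 members gave 2, 44, 18 and 0 calls for the slope, late neurula, tailbud and cleavage comparisons. Shares over all components are not set beside these counts, so nothing is read from them. The scaled and set A counts of peaks, timing and levels at stages 12 to 16 were also added after seeing the data. So were the counts of timing under column totals and under the trimmed mean. What drives these changes was not tested. Depth in reads is unknown, which limits statements on values near 1.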
